A study of Papio anubis with 40 samples.

Results

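Serum tRNA fragments at month 15 after inoculation were compared with each animal's own level before it. The 8 libraries labelled month 15 and the 8 labelled month 0 were taken by their time label and paired by baboon number, which gave 16 of the 40 libraries of the series. The animals were olive baboons (Papio anubis), in which endometriosis, the growth of uterine lining outside the uterus, was induced by placing menstrual tissue in the peritoneal cavity at laparoscopy. Lesions were checked by laparoscopy and histology, per the series' design. Month 0 is the draw before inoculation, and the comparison asks what had changed in the circulation of the same 8 animals (PA8001, PA8003, PA8835, PA8872, PA8873, PA8912, PA8914 and PA8915) by month 15. All libraries came from 0.5 mL of serum and carry the label of no treatment. The labels used here give no age, and no animal went without inoculation, so disease, ageing, surgery and the date of the draw cannot be told apart.

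Transfer RNAs carry amino acids to the ribosome, and nucleases such as angiogenin cut them, often in the anticodon loop, into pieces that keep the 5' or the 3' end. The 5' pieces of a few tRNAs, those for glycine, glutamate, valine and lysine above all, are stable in blood and dominate its small RNA. Those of the 3' side end in CCA, the triplet that an enzyme adds to every mature tRNA and to which the amino acid is attached. In bulk serum, more release of a fragment, slower decay and a change in other fragments cannot be told apart, since each value is relative to the rest of its library. Fragment names below begin with the length in nucleotides (nt), and positions are counted from 1 at the mature 5' end of the parent tRNA.

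Depth ran from 198840 to 5536169 counts per library at month 0 and from 1631205 to 3847831 at month 15. Values are in CPM, counts brought to 1 common library size with TMM factors, which match the bulk of the fragments between libraries. A floor of 3 counts was worth 0.624 to 7.82 CPM at month 0 and 0.819 to 1.70 CPM at month 15. The lowest total and the highest floor belong to the month 0 library of PA8001, in which a value of 0 is therefore a loose limit. The month 15 library of PA8003 had the lowest scaling factor (0.458), which lifts its CPM; its most abundant fragment, tRF-32-Q1Q89P9L8422Q, came out at 1051136 CPM after scaling by that factor.

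The results turn on 3 kinds of sequence, printed here as DNA letters. The first are pieces of the 3' side of Asp-GTC, the aspartate tRNA. Capitals mark its anticodon, at positions 34 to 36, and the final CCA. The fragment of 33 nt, which holds neither, was the most abundant Asp-GTC fragment of the 16 libraries and was added after its values were seen. That of 40 nt has no assigned parent, but differs from the last 40 bases of the fragment of 50 nt by 1 base, G56A.
tRF-50-KS3W2VR008R959KUMKF6: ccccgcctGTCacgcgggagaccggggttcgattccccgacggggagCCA
tRF-42-S5QKF1R3WE8RO86J2: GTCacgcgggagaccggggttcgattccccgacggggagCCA
tRF-40-2VR008R9D9KUMKF6: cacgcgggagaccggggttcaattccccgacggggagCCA
34 nt (positions 42 to 75): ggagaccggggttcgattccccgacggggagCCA
tRF-33-L85DMKYUYRLHDY: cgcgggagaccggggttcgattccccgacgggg
tRF-23-R959KUMK9: ggttcgattccccgacggggagc

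The second kind are 5' fragments. Capitals mark the bases past position 31, the last base of the most abundant serum fragment, tRF-31-79MP9P9NH57SD of Val-AAC/CAC. The Gly-CCC fragments of 27 and 32 nt are shown with the abundant sequence each one differs from.
tRF-36-79MP9P9NH57S3UD (Val-AAC/CAC): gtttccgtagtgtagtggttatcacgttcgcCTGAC
tRF-42-79MP9P9NH57S3U2VL (Val-AAC/CAC): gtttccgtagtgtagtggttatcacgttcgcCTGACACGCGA
tRF-32-P4R84P9LON4V3 (Gly-GCC): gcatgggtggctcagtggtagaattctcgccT
tRF-32-PYRP4PW3FJHP1 (Lys-TTT): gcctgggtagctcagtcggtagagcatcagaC
tRF-40-3JVIJMRPFQRDWXHR (Lys-CTT): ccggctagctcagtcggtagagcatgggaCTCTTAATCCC
tRF-56-PSQP4PW3FJI0E7UM8KSWRND (Lys-CTT): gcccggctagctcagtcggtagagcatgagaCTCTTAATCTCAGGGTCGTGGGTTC
tRF-32-Q1Q89P9L84O2Q (Gly-CCC): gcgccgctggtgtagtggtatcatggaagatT
tRF-32-Q1Q89P9L8422Q (Gly-CCC, abundant): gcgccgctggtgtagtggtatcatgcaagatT
tRF-27-E1Q89P9L842 (Gly-CCC): acgccgctggtgtagtggtatcatgca
tRF-27-Q1Q89P9L842 (Gly-CCC, abundant): gcgccgctggtgtagtggtatcatgca

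The third kind are internal pieces, which hold neither mature end.
tRF-19-PE6LQFK4 (Arg-TCT): gcaatggatagcgcattgg
tRF-19-1SS2P4IR (Lys-CTT): agtcggtagagcatgggac
tRF-25-MBQ4NKKQBR (Met-CAT): cggaagcgtgctgggcccataaccc

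Of 2447 fragments tested, 54 rose at month 15 (2.21%) and 4 fell (0.163%), 2.37% called in all by edgeR at an adjusted p under 0.05. These were rare molecules. Together the 58 held a median of 0.157% of a library's counts at month 0 (0.104% to 0.405%) and 0.226% at month 15 (0.131% to 0.405%), and the ranges overlapped almost whole. The 54 had a median month 0 mean of 4.84 CPM and a median month 15 mean of 20.5 CPM. In 51 of the 58 at least 7 of 8 animals moved the same way, and in 14 all 8 did. The 58 were called on these same differences, so this agreement is no separate support, and the share over all tested fragments is not given here. An animal with 0 CPM at month 0, as PA8001 had for many named fragments, counts as higher with any count at month 15. The median log2 change over all tested fragments was 0.05. The count rests on few libraries: it was 0 without PA8914 (335 fragments with an unadjusted p under 0.05), 3 without PA8003, 7 without PA8873, 9 without PA8912, 12 without PA8001, 19 without the month 0 library of PA8001 and 0 with the month 15 libraries of both PA8001 and PA8003 left out (216). A fit to the 16 libraries of the 2 months alone also called 0 (177 with an unadjusted p under 0.05), scaling by library totals alone 5, and DESeq2 151.

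**Figure D1:**
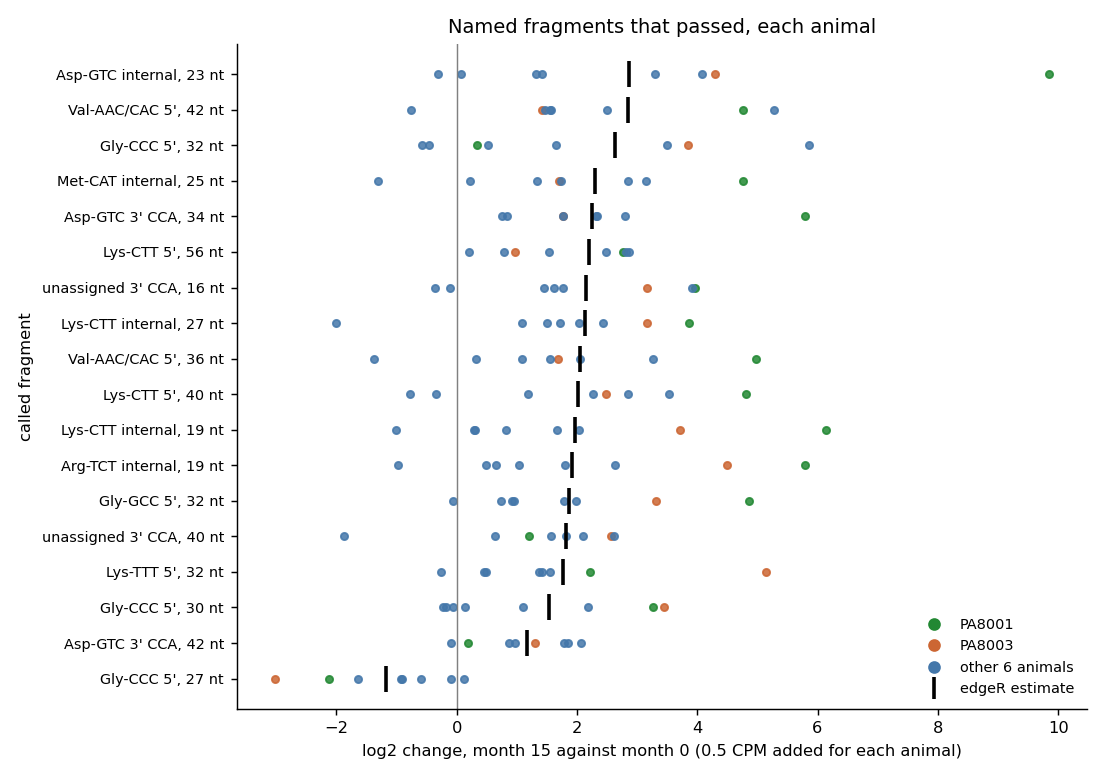
Log2 change from month 0 to month 15 (x axis) of each named fragment that passed (rows), with 1 point per animal after adding 0.5 CPM, and a black bar for the edgeR estimate. PA8001 and PA8003 often lie farthest from 0, as in the Asp-GTC fragment of 23 nt, where PA8001 stood at 458.8 CPM at month 15.

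Asp-GTC supplied 36 of the 54 fragments that rose, from 132 tested (27.3% called). No 5' fragment was among them, but only 22 were tested, with 14 above 0. That is too few to set against the 2.37% called of all fragments. The share called differed between groups of start and end positions, which were drawn after the values were seen and not tested against each other. Before inoculation the commonest pieces started at positions 37 to 40, just past the anticodon, and ended at 69 to 72, short of the 3' end; they made up a median of 44.4% of the family's counts. Of 26 such fragments tested none was called, 12 had a log2 change above 0 and the median was -0.16. Their sum ran from 360.2 to 2070 CPM at month 0 (median 1043) and from 445.4 to 3264 at month 15 (median 793.5), and was higher in 4 of 8 animals. Their most abundant member, tRF-33-L85DMKYUYRLHDY (38 to 70), ran from 10.4 to 682.8 CPM at month 0 and from 35.2 to 110.9 at month 15 (log2 -0.83 ± 0.587 SE, adjusted p 0.410).

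Pieces of the 3' side that start at 31 to 36 or reach into the last 3 bases were higher. Starts at 27 to 30 were higher as well, in 6 or 7 of 8 animals, for instance at 29 (median 11.3 CPM, then 42.7 CPM). Those that start at 31 to 36, within or just before the anticodon, and end in the CCA at 75 ran from 36.8 to 268.2 CPM at month 0 (median 103.5) and from 125.9 to 711.7 at month 15 (median 328.6). Every animal was higher, though the ranges overlapped. Of the 6 such fragments tested, 5 rose (median log2 1.39). With the same starts but ends at 73 or 74, the sum went from a median of 21.5 CPM (5.21 to 71.8) to 115.3 CPM (23.9 to 185.9), again higher in 8 of 8, and 5 of 6 tested fragments rose (median log2 2.12). By their ends, 33 of the 36 Asp-GTC fragments that rose stop at 73 to 75, but many of the fragments tested also end there, as the counts per group show. The same starts with ends at 69 to 72, short of the 3' end, were as high, with 2 of 3 tested fragments called (median log2 2.13) and a sum higher in 7 of 8 animals (median 9.24 CPM, then 41.1 CPM). For starts past position 40, 11 of 22 were called for ends at 73 or 74, 7 of 13 for ends at 75 and 0 of 9 for ends at 69 to 72 (median log2 1.14, all 9 above 0). The sum of those that start at 41 to 50 and end at 69 to 72 was nevertheless higher in 8 of 8 animals (median 25.2 CPM, then 47.0 CPM). Among starts at 37 to 40, 2 of 8 were called for ends at 73 or 74 and 3 of 4 for ends at 75. The sum of those that end at 73 or 74 was higher in 6 of 8 animals (median 125.7 CPM, then 267.4 CPM). Among starts up to 30, 0 of 1 was called for ends at 73 or 74 and 0 of 5 for ends at 75. Overlapping fragments share molecules and libraries, so these counts are no independent observations, and the groups of positions were drawn after the values were seen, with no test between them.

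**Figure D2:**
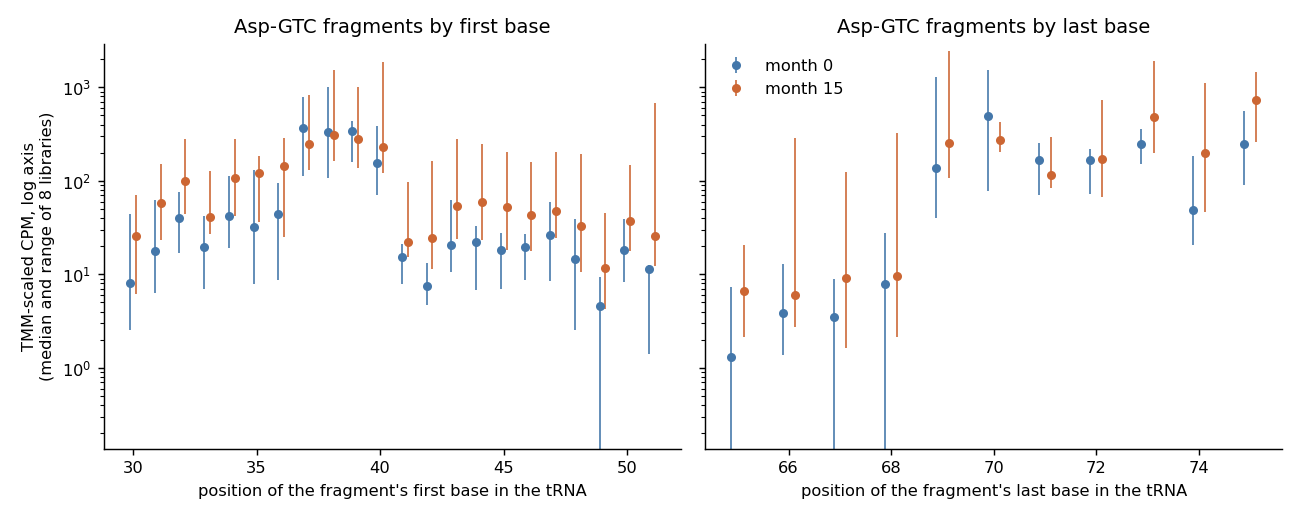
Asp-GTC fragments summed by the position of their first base (left) or last base (right), as the median (point) and full range (line) of 8 libraries in TMM-scaled CPM on a log axis; a line that reaches the lower edge includes a library at 0. Medians at month 15 lie above month 0 for starts at 30 to 36 and at 40 to 51, and for ends at 65 to 69 and at 73 to 75. They lie near or below it for starts at 37 to 39 and ends at 70 to 72.

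By single positions, fragments with their last base at 75, the end of the CCA, went from a median of 246.8 CPM (89.6 to 558.7) to 737.8 CPM (258.9 to 1455), higher in 8 of 8 animals. Those that end at 73 were also higher in 8 of 8 (median 248.3 to 476.3 CPM), and those that end at 74 in 7 (48.9 to 200.6 CPM). The largest class of month 0, with ends at 70, was higher in 3 of 8, at a median of 496.7 CPM before and 275.7 CPM after. Depth of coverage over the 5' arm, for instance at position 1, was higher in 3 of 8 animals (median 370.4 and 430.9 CPM).

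The piece from the first anticodon base to the mature 3' end, tRF-42-S5QKF1R3WE8RO86J2, ran from 16.5 to 102.0 CPM at month 0 (median 33.4) and from 33.0 to 253.1 at month 15 (median 91.3). It was higher in 7 of 8 animals (log2 1.17 ± 0.322 SE, adjusted p 0.0443), its call held in 5 of 18 alternative settings, and PA8003 alone lay above 110.1 CPM at month 15. The fragment of 34 nt at positions 42 to 75, which begins past the anticodon, went from a median of 2.36 CPM (0 to 7.03) to 12.4 CPM (3.67 to 27.1). It was higher in all 8 animals (log2 2.25 ± 0.450 SE, adjusted p 0.0204) and kept its call in 15 of 18 alternative settings, the highest number among the named fragments, which kept theirs in 3 to 15. tRF-50-KS3W2VR008R959KUMKF6, which keeps the anticodon stem, stood just past the threshold (log2 1.65 ± 0.474 SE, adjusted p 0.0532), with 8 of 8 animals higher. The largest estimate was that of tRF-23-R959KUMK9 (51 to 73; log2 2.87 ± 0.684 SE, adjusted p 0.0355), which ran from 0 to 9.70 CPM at month 0 and from 6.28 to 458.8 at month 15. That top value is of PA8001, the other 7 animals lay between 6.28 and 70.5 CPM, and the call ended when any 1 of PA8001, PA8003, PA8872, PA8873 and PA8914 was left out, and with scaling by library totals. The unassigned tRF-40-2VR008R9D9KUMKF6 rose as well (log2 1.82 ± 0.511 SE, adjusted p 0.0495, higher in 7 of 8), with its call kept in 3 of 16 settings.

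Within the family, the log2 ratio of 3' CCA counts to all other Asp-GTC counts was -2.81 ± 1.28 (SD, n = 8) at month 0 and -1.81 ± 0.638 at month 15, higher by 1.00 ± 1.59 in 7 of 8 animals. This ratio does not depend on the scaling. It did not pass (exact sign-flip test over animals, two-sided, p = 0.102, adjusted over 3 ratios 0.305). PA8001 went the other way, with 205 3' CCA counts among 681 Asp-GTC counts in its month 0 library, and the other 7 animals were higher by a mean of 1.42. The ratios of internal and of 5' counts to all others differed by -0.42 ± 0.856 and -0.12 ± 0.895 (adjusted exact p 0.316 and 0.742).

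Lys-CTT, the tRNA of lysine codon AAG, gave the strongest call among sums of related fragments. Its 5' fragments of 37 nt or more, which run through the anticodon and beyond, were summed over 267 distinct sequences. The sum ran from 0 to 36.9 CPM at month 0 (median 24.8) and from 21.2 to 185.5 at month 15 (median 83.1), higher in 7 of 8 animals (log2 2.10 ± 0.402 SE, adjusted p 0.000620 over 175 sums). Only PA8912 was lower, at 21.2 CPM after 26.1 CPM. Of 108 Lys-CTT 5' fragments tested, 2 passed on their own, both in this sum, a share near the 2.37% called of all fragments. tRF-56-PSQP4PW3FJI0E7UM8KSWRND, which differs from the commonest Lys-CTT fragment of its length by G29A and C41T, was higher in 8 of 8 animals, from 0 to 7.78 CPM at month 0 and 0.606 to 46.0 CPM at month 15 (log2 2.21 ± 0.473 SE, adjusted p 0.0204). tRF-40-3JVIJMRPFQRDWXHR went from a median of 4.84 CPM (0 to 11.3) to 14.8 CPM (1.53 to 49.6; log2 2.01 ± 0.536 SE, adjusted p 0.0404).

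Of 28 internal Lys-CTT fragments tested 2 rose, and 26 had a log2 above 0 (median 1.01). The share called was near the 7.83% of all internal fragments. That figure rests mostly on Asp-GTC, which had 21 internal fragments called of 82 tested. tRF-19-1SS2P4IR, from the D loop to the anticodon loop, ran from 0 to 6.44 CPM at month 0 (median 5.67) and from 2.68 to 90.2 at month 15 (median 12.3; log2 1.97 ± 0.524 SE, adjusted p 0.0404). Its highest value was again of PA8003, with the other 7 at or below 34.8 CPM. The 108 Lys-CTT 5' fragments tested, of all lengths, had a median log2 of -0.06, with 52 above 0 and both calls at 40 nt or more.

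Among the 5' fragments of the abundant families, none of the 10 most abundant fragments passed. Those described here are rarer, and run past the usual end, carry a base change or start late. tRF-36-79MP9P9NH57S3UD of Val-AAC/CAC ran from 1.40 to 29.3 CPM at month 0 (median 6.08) and from 1.21 to 260.9 at month 15 (median 23.0; log2 2.05 ± 0.550 SE, adjusted p 0.0404, higher in 7 of 8). Its highest value, of PA8001, stood far above the next at 36.8 CPM. tRF-42-79MP9P9NH57S3U2VL, which runs past the anticodon, went from a median of 0.921 CPM, near the floor, to 4.32 CPM (log2 2.86 ± 0.767 SE, adjusted p 0.0404). The main form tRF-31-79MP9P9NH57SD ran from 21470 to 272124 CPM at month 0 and from 39118 to 176306 at month 15 (log2 -0.37 ± 0.324 SE, adjusted p 0.496).

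The fragments of 32 nt that rose from their first base differ from the main sequence of their family. tRF-32-PYRP4PW3FJHP1 differs from the main Lys-TTT sequence by C4T and A7G and went from a median of 43.2 CPM (23.5 to 71.0) to 100.1 CPM (29.2 to 2161; log2 1.77 ± 0.459 SE, adjusted p 0.0370). The value of 2161 CPM is of PA8003, and the other 7 month 15 libraries lay at or below 134.5 CPM. tRF-32-Q1Q89P9L84O2Q, which differs from the abundant Gly-CCC form by C26G, ran from 1.63 to 15.6 CPM and then from 5.19 to 122.4 (log2 2.63 ± 0.746 SE, adjusted p 0.0496, higher in 6 of 8). The abundant form itself, tRF-32-Q1Q89P9L8422Q, had a log2 of 1.00 ± 0.346 SE (adjusted p 0.117). tRF-30-PV94V4SMIFFN, of 30 nt and without a base change, covers positions 3 to 32 of that form and rose as well (log2 1.54 ± 0.413 SE, adjusted p 0.0404, higher in 5 of 8). Its medians were close, at 22.8 and 25.6 CPM, and month 0 values reached 33.9 CPM. At month 15 PA8001 (328.6 CPM) and PA8003 (273.6 CPM) stood far above the other 6 animals, at or below 28.1 CPM. tRF-32-P4R84P9LON4V3 of Gly-GCC, with T11C against the main sequence, rose from a median of 1.97 CPM to 6.56 CPM (log2 1.87 ± 0.455 SE, adjusted p 0.0355).

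The Gly-CCC fragments that fell were short. tRF-27-E1Q89P9L842 of Gly-CCC, which carries G1A, ran from 543.3 to 2340 CPM at month 0 (median 1139) and from 289.5 to 950.0 at month 15 (median 545.8), lower in 7 of 8 animals (log2 -1.18 ± 0.293 SE, adjusted p 0.0355). PA8835 was the exception, at 876.3 and 950.0 CPM. The other Gly-CCC fragments that fell were rarer and are added here after their values were seen: tRF-27-31Q89P9L842, with G1C, from a mean of 15.7 to 7.47 CPM and lower in 8 of 8 animals (log2 -1.09 ± 0.246 SE, adjusted p 0.0312), and tRF-26-LSN3S3RQ2VB from 8.80 to 4.13 CPM (log2 -1.18, adjusted p 0.0404). The far more abundant tRF-27-Q1Q89P9L842 ran from 17025 to 254508 CPM and then from 30949 to 118523, lower in 6 of 8, and did not pass (log2 -0.66 ± 0.372 SE, adjusted p 0.298). Just outside the threshold on the lower side were 2 Val-AAC/CAC fragments of 30 nt, tRF-30-79MP9P9NI57S (log2 -1.18 ± 0.346 SE, adjusted p 0.0554) and tRF-30-S9MP9P9NH57S (log2 -1.13 ± 0.337 SE, adjusted p 0.0618), the latter lower in 8 of 8.

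Of 36 tRNA family sums, 1 passed (2.78%). Arg-TCT, whose name rests on 4 anticodon reads, ran from 0 to 64.9 CPM at month 0 (median 27.5) and from 26.1 to 219.6 at month 15 (median 71.4), higher in 7 of 8 animals (log2 1.86, adjusted p 0.00637). Its main fragment is tRF-19-PE6LQFK4 (12 to 30), which went from a median of 17.2 CPM (0 to 50.2) to 48.6 CPM (16.9 to 147.0; log2 1.92 ± 0.518 SE, adjusted p 0.0404). The family call ended without PA8001, without PA8003 and without the month 0 library of PA8001, the only one at 0. Met-CAT internal fragments had a log2 above 0 in 8 of 8 tested (median 1.15); tRF-25-MBQ4NKKQBR, across the anticodon loop, passed at levels near the floor, with medians of 0.479 and 4.87 CPM (log2 2.29 ± 0.603 SE, adjusted p 0.0395).

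Fragments were also summed by family, end class and length band, which pools length variants that are too rare alone. Of 175 such sums 25 rose and none fell (14.3%; 51 with an unadjusted p under 0.05). The 25 were 13 internal, 6 3' CCA and 6 5' sums. Asp-GTC gave 7, with all 4 tested 3' CCA bands of 25 nt or more: 25 to 29 nt (log2 1.30), 30 to 31 nt (1.70), 32 to 36 nt (1.63) and 37 nt or longer (1.33). Lys-CTT gave 5, Met-CAT and Gly-GCC 3 each, and Glu-CTC 2. Over all 175 sums the median log2 was 0.57 and 131 lay above 0, and the 150 sums not called had a median of 0.45.

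**Figure D3:**
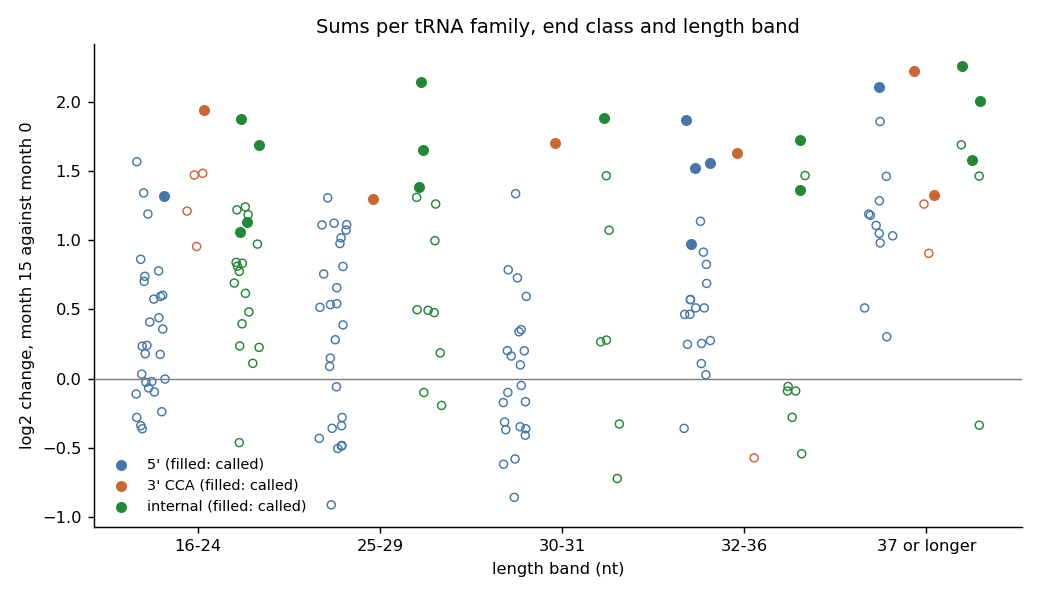
Log2 change at month 15 (y axis) of each sum per tRNA family, end class and length band (x axis), coloured by end class; filled points passed the edgeR test. Most points lie above 0, and all 12 sums of 5' fragments of 37 nt or longer do.

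That direction depends on the scaling. It held with library totals alone (median log2 0.47, 17 sums higher and 0 lower). With DESeq2 size factors it held as well (median log2 0.55, 19 higher and 0 lower). With TMM factors taken from the 175 sums themselves, a setting added after the data were seen, the median over all sums was -0.14, and 2 sums rose and 17 fell. The 2 that still rose were the Lys-CTT sums of 37 nt or longer, 5' (log2 1.43, adjusted p 0.0257) and internal (log2 1.34, adjusted p 0.0248). The 25 sums kept a log2 above 0, at a median of 0.91 in place of 1.65, and the sums that fell were mainly 5' ones of 25 to 31 nt, such as Gly-CCC of 25 to 29 nt (log2 -1.24, against -0.43 with the usual scaling) and Glu-CTC of the same length (-1.63 against -0.91). The calls also fell to 3 when PA8001 and PA8003 were left out at month 15, to 10 without PA8003 and to 13 without PA8914.

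Lengths, taken as shares of each library's own counts, need no scaling between libraries. The share of fragments of 32 to 36 nt ran from 12.3% to 44.1% at month 0 (median 22.4%) and from 23.7% to 63.1% at month 15 (median 29.5%), higher in 7 of 8 animals. The mean difference was 11.2 percentage points ± 14.7 (SD, n = 8), of which PA8003 gave the most, from 19.1% to 63.1%, and PA8835 none, at 23.9% and 23.7%. The share of 25 to 29 nt was lower in 7 of 8 (-7.04 points ± 8.47) and that of 30 to 31 nt in 7 of 8 (-4.51 ± 7.35). Each had an exact sign-flip p of 0.0156 and an adjusted p of 0.0508 over 13 library measures, and none of the 13 passed. Mean length was higher in all 8 animals by 0.36 nt ± 0.437 (exact p = 0.00781, the smallest that 8 animals allow, adjusted 0.0508). Without PA8001 and PA8003 the difference was 0.26 nt, and the smallest exact p of 6 animals is 0.0313. The share of 3' CCA fragments was higher in 7 of 8 (0.0690% ± 0.0478 and 0.151% ± 0.0833, exact p = 0.0234, adjusted 0.0609), and distinct fragments at equal depth were more numerous in 7 of 8 animals, without passing (means of 2492 and 2974 at 198840 counts, adjusted exact p 0.102).

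**Figure D4:**
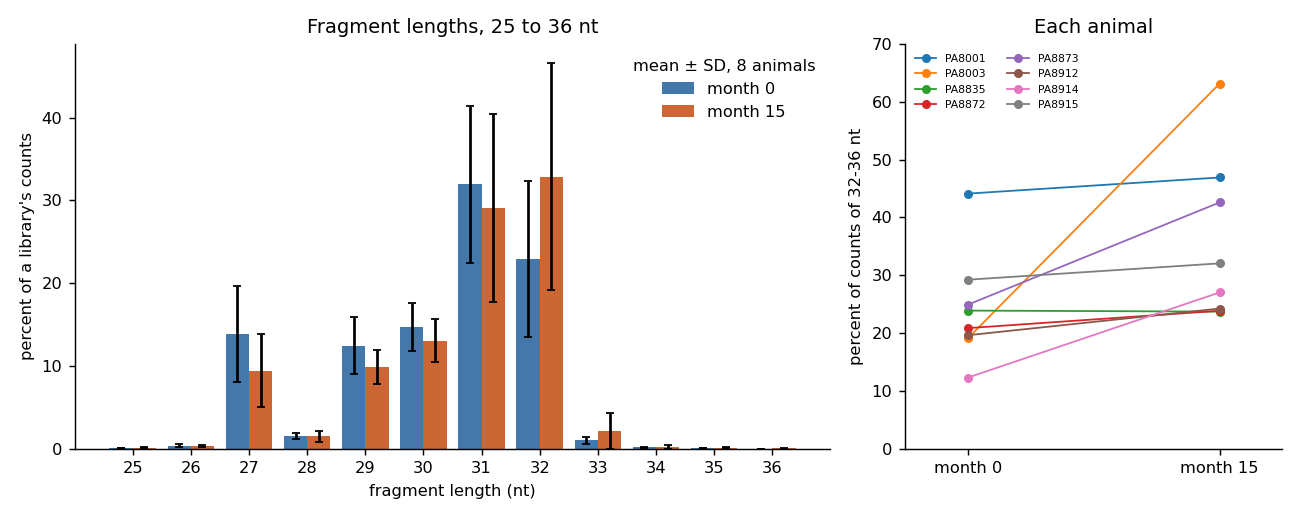
Left, percent of a library's counts at each length (mean ± SD of 8 animals, month 0 and month 15); right, the percent of 32 to 36 nt in each animal, joined across the 2 months. The fragments of 32 nt make up most of the difference, at 23.0% ± 9.43 and 32.9% ± 13.7, and PA8003 has the steepest line.

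The same shift was looked for inside single families, as the log2 ratio of 5' fragments of 32 to 36 nt to those of 26 to 31 nt. It was higher on average in 9 of the 10 families with at least 20 such counts in every library. Val-AAC/CAC was higher in 8 of 8 animals, from -1.61 ± 0.333 to -0.95 ± 0.686 (difference 0.66 ± 0.517, exact p = 0.00781, adjusted 0.0781). Gly-CCC differed by 1.07 ± 1.34 in 7 of 8 animals (adjusted exact p 0.130) and Lys-CTT by 0.68 ± 0.862 in 6 of 8 (adjusted exact p 0.130). Asp-GTC alone was lower on average (-0.70 ± 1.31, lower in 5 of 8, adjusted exact p 0.226). Its largest falls were in PA8001 (4.15 to 1.35), whose month 0 library is the smallest, and PA8872 (1.56 to -0.77), while 3 animals were higher. No family passed, so that a common shift is described here and not shown for any of them.

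**Figure D5:**
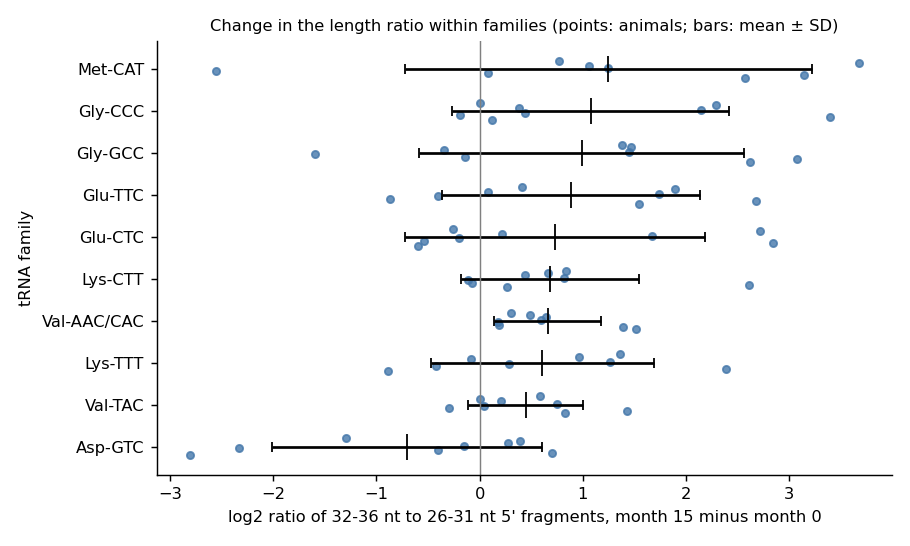
Difference between month 15 and month 0 in the log2 ratio of longer (32 to 36 nt) to shorter (26 to 31 nt) 5' fragments, by tRNA family; points are animals and bars the mean ± SD of 8. All points of Val-AAC/CAC lie above 0, while the other families spread over both sides.

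Groups of fragments known from other work were read against the 2.37% called of all fragments. The 5' fragments of the families abundant in serum, among them the glycine, glutamate, valine and lysine ones, had 10 higher and 3 lower of 1817 tested (0.715%, median log2 0.02). Those of Asp-GTC, His-GTG and Lys-CTT, whose 5' pieces are known as dependent on sex hormones in hormone-responsive cancers, had 2 higher of 134 (1.49%, median 0.00). For tRNAs whose fragments bind YBX1, an RNA-binding protein that stabilises mRNA (glutamate, Asp-GTC, Gly-TCC and Tyr-GTA), 39 were higher and 1 lower of 512 (7.81%, median 0.02), with 36 of the 39 from Asp-GTC; no fragment was assigned to Tyr-GTA, so none of that tRNA was tested. None of the 46 fragments that start with 4 guanines, which can stack into quadruplexes, was called. Of 52 tested 3' CCA fragments 18 rose (34.6%) and 51 had a log2 above 0 (median 1.39). Asp-GTC gave 15 of the 18, from 28 tested, and the other 3 have no assigned parent. Of 345 internal fragments 26 rose and 1 fell (7.83%, median 0.30). Of these 26, Asp-GTC gave 21, from 82 tested.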

How the data were processed

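The authors deposited a table of counts per distinct fragment sequence for 40 serum libraries, as whole numbers without scaling, and a table of the fragment sequences, a text column with no other measurement. Adapter ligation, molecular identifiers and NovaSeq X sequencing are given per the labels' protocols. R 4.5.0, edgeR and limma are named in the submitters' processing notes. The aligner, the tRNA reference and whether counts were collapsed by molecular identifier were not stated in the sources used, so floors cover counting error only.

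The 1614 lines without an ID (0.0805% of counts) were left out. Parent tRNAs were read from the anticodon of fragments of at least 42 nt, and other fragments were placed within 2 mismatches of those. The name Lys-TTT rests on 8 anticodon reads. A fragment counted as 5' when its first base lay no more than 2 bases from the mature 5' end, as 3' CCA when it closed with those bases, and otherwise as internal.

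The main fit was edgeR 4.0.16 in R 4.3.3 on all 40 libraries, with animal and month as terms, filterByExpr with a minimum count of 10, TMM scaling, robust quasi-likelihood, two-sided, Benjamini-Hochberg adjustment over all tested fragments or sums, and an adjusted p under 0.05 taken as passing. Other months share the estimate of spread. Library measures and ratios (0.5 counts added) were compared by exact two-sided sign-flip tests over 8 animals. Pairing comes from the baboon numbers. Deviations from the month means correlated at a mean of 0.153 within animals (-0.161 to 0.459) and -0.0170 between animals (-0.587 to 0.330). Of same-animal pairs 5 of 8 were above 0.1, and of different-animal pairs 21 of 56. DESeq2 1.42.0, limma-voom (limma 3.58.1), other scalings and filters, and leaving out animals were tried. Both kinds of test were tried on simulated data, drawn independently and without animal effects. Such data lack the overlap between fragments and the outlying libraries seen here, so the trial does not cover them. Named fragments are, of those called, the most abundant and the most changed of each family and end class, with the 10 most abundant and the 3 nearest to the threshold in each direction. The members, lists and tests were chosen with earlier results of these data known. Single fragments of Glu-CTC are not reported here, although they were fitted and are counted in the totals.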

Additional observations from a re-analysis of the deposited data

Results flagged for a closer look

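In each group of 8 libraries, a value was singled out where its gap to the nearest other library took up more of the group's whole range than Dixon's 95% critical value allows. Of 160 groups of values, from the library measures, the sums that passed, the length ratios within families and the named fragments, 31 (19.4%) had such a value, against about 1 in 20 by chance; the groups overlap and are not independent, and CPM values are skewed.

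At month 15, PA8003 stood above the other 7 animals in sums and fragments of several lengths and levels. Its Gly-CCC 5' sum of 32 to 36 nt was 1125843 CPM, against 63859 to 247859. Its values were 191095 CPM for tRF-29-Q1Q89P9L84FS, 212067 CPM for tRF-30-Q1Q89P9L8422, 1051136 CPM for tRF-32-Q1Q89P9L8422Q (the others 52896 to 223037), 2161 CPM for tRF-32-PYRP4PW3FJHP1, 253.1 CPM for tRF-42-S5QKF1R3WE8RO86J2 and 90.2 CPM for tRF-19-1SS2P4IR. Its sums were 219.6 CPM for Arg-TCT internal fragments of 16 to 24 nt, 254.3 and 140.2 CPM for Lys-CTT internal fragments of 25 to 29 and 32 to 36 nt, 72.1 CPM for Glu-CTC internal fragments of 32 to 36 nt and 77.8 CPM for 5' fragments of 32 to 36 nt of a family whose anticodon was not read (the others 3.00 to 11.5). The low scaling factor of this library (0.458) enters all of these values, and its part in them was not tested.

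PA8001 at month 15 had the lowest share of 5' fragments (97.9%, the others 99.0% to 99.5%) and the highest share of internal ones (1.77%, the others 0.481% to 0.879%). Its Asp-GTC internal fragments summed to 938.4 CPM at 25 to 29 nt (the others 52.7 to 232.2) and to 1273 CPM at 16 to 24 nt. tRF-23-R959KUMK9 was at 458.8 CPM and tRF-36-79MP9P9NH57S3UD at 260.9 CPM. At month 0 the same animal, with the smallest library, had log2 length ratios of 4.15 in Asp-GTC (the others 0.91 to 2.31) and 0.24 in Lys-TTT (the others -2.51 to -1.28), and 59.9 CPM of Met-CAT internal fragments of 16 to 24 nt.

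PA8872 was high at month 0 in fragments of 37 nt or longer (0.264% of counts, the others 0.0197% to 0.134%), in Asp-GTC internal fragments of that length (322.9 CPM) and in tRF-36-79MP9P9NH57S3UD (29.3 CPM), and at month 15 in tRF-26-P4R8YP9LOND of Gly-GCC (580.2 CPM, the others 16.1 to 102.1) and tRF-56-PSQP4PW3FJI0E7UM8KSWRND (46.0 CPM). Single values apart were 3.45 CPM of the Lys-CTT fragment tRF-27-S8V0J8O9YEJ and 2.99 CPM of tRF-25-MBQ4NKKQBR (PA8873, month 0), 5.02 and 63.6 CPM of tRF-42-79MP9P9NH57S3U2VL (PA8915, month 0, and PA8873, month 15) and 13.98 CPM of the unassigned tRF-16-K8E0KRB (PA8914, month 15).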

How the results depend on the processing

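With 58 fragments called, the count was 5 with library totals as the only scaling, 111 without a filter on low counts (31 shared), 151 by DESeq2 (all 58 shared), 0 with months 0 and 15 only, 0 with both PA8001 and PA8003 left out at month 15, 19 without the month 0 library of PA8001 (18 shared), and 0 to 77 leaving out 1 animal. In the fit without the replicate block, that is without pairing, 69 fragments, 0 families and 36 sums were called. The family call also ended with months 0 and 15 only (0), without those 2 month 15 libraries (0) or the month 0 library of PA8001 (0), and the count was 0 to 1 leaving out 1 animal. The 25 sums became 0 with months 0 and 15 only (16 with an unadjusted p under 0.05), 3 without the 2 month 15 libraries, 41 by DESeq2 (all 25 shared), 10 to 43 leaving out 1 animal, and 2 higher and 17 lower with scaling from the sums. No named change that passed turned its sign in any setting.

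Of 13 library measures 0 passed; 4 of 12 did with fragments of at least 10 counts only and 4 of 12 without the most abundant fragment, where the count of distinct fragments was not taken and fewer tests were adjusted. Asp-GTC ends gave 0 calls, and 0 to 1 leaving out 1 animal; the 1 came without PA8001, the animal of opposite sign, so that the sign-flip p was the smallest 7 animals allow by that choice alone. No length ratio within a family passed in any setting. For other changes the cause was not tested. Depth limits the small libraries most: 35 of the 58 called fragments had a month 0 mean below the floor of the smallest library.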
